A study of Sus scrofa with 67 samples.

Results

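A set of 28 genes had more RNA on day 9 than on day 0 of the oestrous cycle in all 3 reproductive tissues sampled from gilts, the endometrium, ovary and oviduct. Counts were scaled to CPM, a gene's counts per 1000000 counts of its library. The mean CPM of a tissue and day, plus 1, was divided by that of another day. The members were chosen by the measured ratio of day 9 to day 0, which had to be at least 2 in each tissue, and 28 of 25322 genes met it. Their values on days 0 and 9 are therefore a description without a test. The animals were crossbred Landrace and Yorkshire gilts aged 6 to 8 months that had shown at least 2 normal cycles, with no treatment named. Day 0 was the onset of oestrous behaviour. RNA was sequenced from endometrium freed of myometrium, from the ampulla of the oviduct and from the whole ovary, every 3 days from day 0 to day 18. The 66 libraries analysed here formed 21 groups by tissue and day. There were 2 libraries for the day 3 ovary and the day 6 oviduct, and 4 for the day 15 endometrium and for both other tissues on days 12 and 15. All other groups had 3. The study's methods give fewer gilts a day than the 4 libraries of the largest groups, while the series text gives more gilts in all. The labels do not tie libraries to gilts, so p-values measure the spread between libraries.

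After ovulation the ruptured follicle becomes the corpus luteum, which secretes progesterone until it regresses late in the cycle, when new follicles grow and secrete oestradiol. Progesterone acts on the endometrium and the oviduct through receptors in their cells and prepares them for an embryo. The corpus luteum is part of the ovary, so a whole ovary library of the luteal phase holds the RNA of the luteal cells themselves. In pooled tissue of this kind, fewer cells of a type and less RNA per cell cannot be told apart.

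Library totals were 8962103 to 13442083 counts, and 3 counts were worth 0.223 to 0.335 CPM. The tissues carried their markers, though not free of overlap. OVGP1, the secreted oviductal glycoprotein, was at 1141 to 203311 CPM in the oviduct. In the ovary it reached 1971 CPM in library 2 of day 0 and 1714.5 CPM in library 1 of day 15. That day 15 library also had FOXJ1, a ciliated cell marker, at 245 CPM, against 2.19, 4.69 and 4.35 CPM in libraries 2 to 4. Its KRT8, an epithelial marker, was at 576 CPM, against 13.7, 36.1 and 27.2 CPM. CYP11A1, the enzyme that makes pregnenolone from cholesterol, was at 4056, 4084 and 4207 CPM in the ovary on day 9. Of 5 luteal markers, 3 were found in the table (CYP11A1, SCARB1 and LHCGR), and their summed level in the ovary was 669.7 to 5119 CPM on day 0 and 9208 to 9903 CPM on day 9. In the endometrium CYP11A1 stayed at 1.36 to 7.7 CPM and LHCGR, the luteinizing hormone receptor, at no more than 0.435 CPM, while SCARB1, the lipoprotein receptor that supplies cholesterol, was at 136 to 248 CPM. One ovary library of day 12, library 1, stood apart from the other 3 of its day, with CYP11A1 at 167, 7151, 9045 and 5159 CPM in libraries 1 to 4 and INHA, a granulosa cell gene, at 2284, 121, 79.3 and 109.8 CPM. In the endometrium of day 15, library 2 stood apart in the members. Results that rest on these libraries are given with and without them.

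The ratio of day 9 to day 0 was at least 2 for 1068 genes in the endometrium (4.22% of all), 935 in the ovary (3.69%) and 937 in the oviduct (3.7%). The endometrium and the ovary shared 147 of them, the endometrium and the oviduct 139, and the ovary and the oviduct 134. Of the 28 genes in all 3 tissues, 23 had a gene symbol. LIPG, endothelial lipase, had the largest value of the smallest ratio, at 92.8 (endometrium), 21.4 (ovary) and 16.6 (oviduct). Just inside the threshold stood EPHX1 with a smallest ratio of 2.04, TC2N with 2.04 and ENSSSCG00000010426 with 2.07, and just outside stood STEAP4 with 1.96, ZBTB7C with 1.92 and ATP1B2 with 1.92. The members held 0.0983% to 0.15% of the endometrial counts on day 0 and 0.423% to 0.452% on day 9. They held 0.113% to 0.619% and 3.47% to 4.46% of the ovarian counts on these days. In the oviduct they held 0.0655% to 0.0712% and 0.265% to 0.435%.

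**Figure D1:**
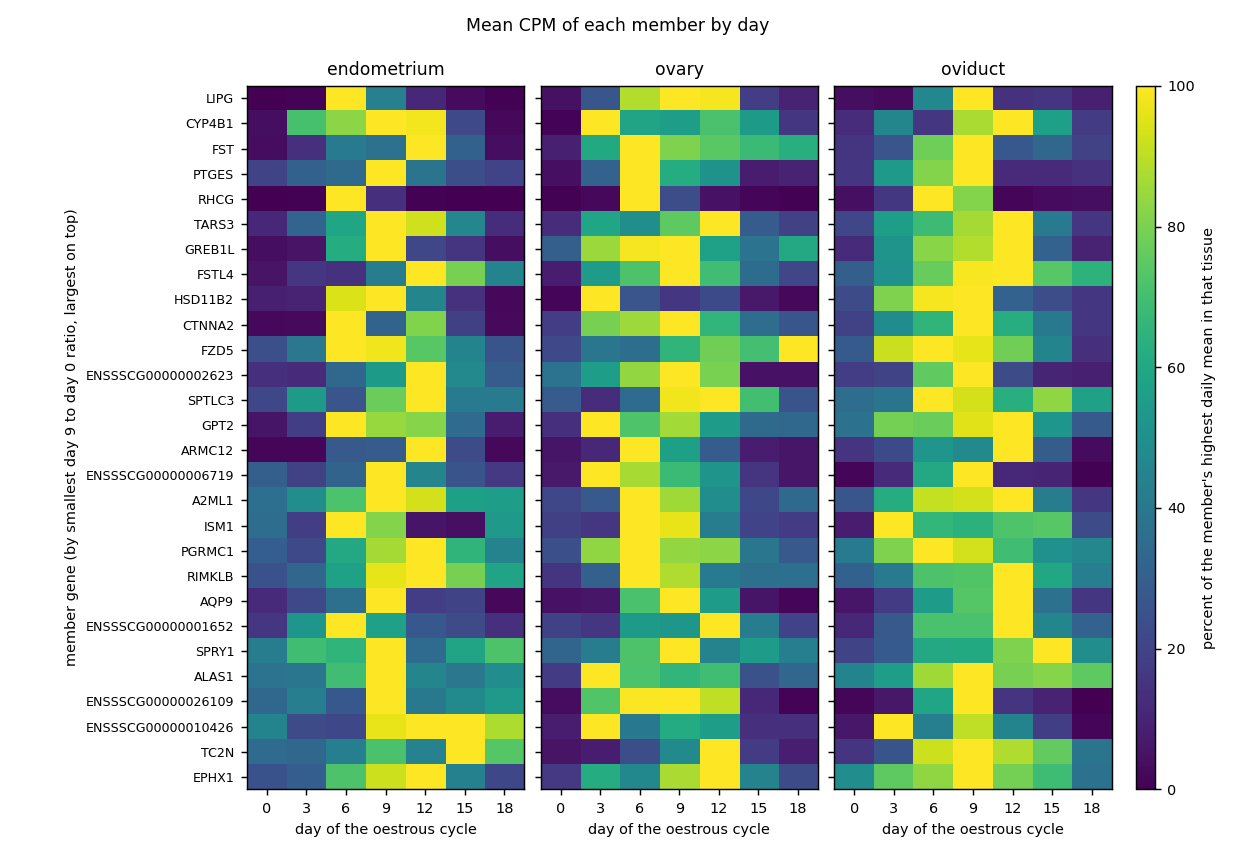
Mean CPM of each member (rows) on the 7 days of the cycle (columns) in each tissue, as a percentage of the member's highest daily mean in that tissue. Bright cells gather on days 6 to 12 in the endometrium and the oviduct and on days 3 to 12 in the ovary, and days 0 and 9 are those that chose the members.

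On the 5 days that the rule did not use, the members were highest in the middle of the cycle. Over these days the highest mean fell on day 6 or day 12 for 24 members (endometrium), 21 (ovary) and 25 (oviduct). The share of all genes with such a peak was not counted, so these numbers only describe the members. The mean of log2(CPM + 1) over the 28 members was 3.46 to 3.88 in the endometrial libraries of day 3, 4.90 to 5.16 on day 6, 4.66 to 5.10 on day 12 and 3.4 to 3.55 on day 18. In the oviduct it was 3.35 to 4.71, 5.04 to 5.21, 4.39 to 4.97 and 2.87 to 3.41 on the same days. The endometrial libraries of days 6 and 12 lay above those of days 3 and 18 without overlap. In the oviduct those of days 6 and 12 lay above those of day 18, while days 3 and 12 overlapped. In the ovary the mean was already 5.75 to 6.12 on day 3 and reached 6.43 to 6.88 on day 6. On day 12 it was 4.55 in library 1 against 6.38 to 7.01 in the other 3, with 4.07 to 4.77 on day 18.

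**Figure D2:**
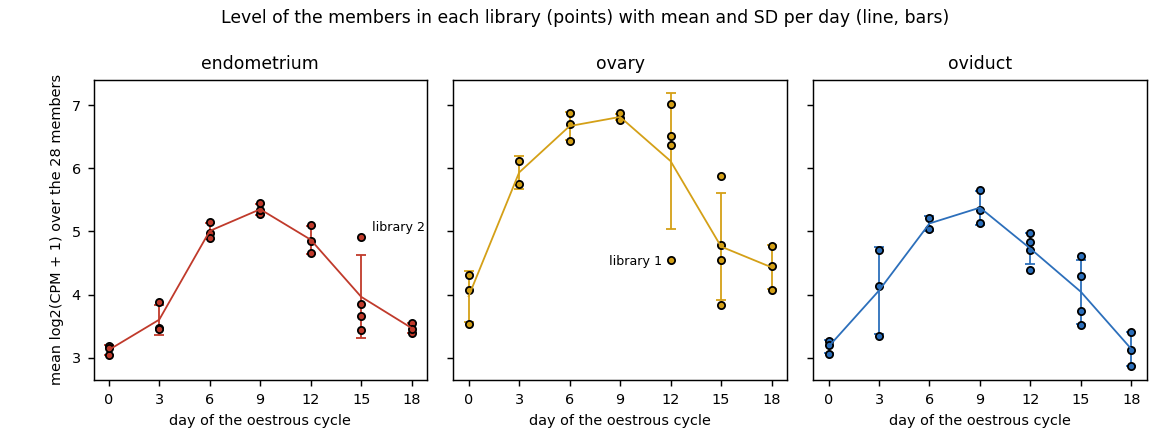
Mean of log2(CPM + 1) over the 28 members in each library (points), with the mean and SD of each day (line and bars), for the 3 tissues. Endometrial library 2 of day 15 (4.92) lies with day 12 (4.66 to 5.10), and ovarian library 1 of day 12 (4.55) lies with day 18 (4.07 to 4.77).

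The rise early in the cycle was tested between days 3 and 6 with edgeR, with adjustment over all genes tested. A gene is called here when its adjusted p is under 0.05. In the endometrium 10 of 27 members tested rose and 0 fell, where 6.69% of all genes were called higher and 7.73% lower. The median log2 fold change was 1.12 over the members and -0.0084 over all genes. In 17 of the 28 members every library of day 6 lay above every library of day 3, against 9.85% of all genes with a count. The 10 were RHCG, LIPG, CTNNA2, ARMC12, GREB1L, HSD11B2, ISM1, GPT2, PGRMC1 and FZD5. Without library 1 of day 3 there were 5 calls, without library 2 of day 3 there were 6, and without library 3 of day 6 there were 6. Shares of all genes called in these fits are not given here, so the counts show only how far the calls rest on single libraries. Beside this rise, the summed level of 3 stromal markers was 3230.5 to 4493 CPM on day 3 and 1825 to 2484 CPM on day 6. That of 4 epithelial markers was 2139 to 2297 and 2149 to 4855 CPM. Other lists were also lower on day 6 without overlap. PECAM1, the 1 endothelial marker found, was at 152 to 250.2 and 79.1 to 94.9 CPM, 3 ciliated cell markers at 328 to 488 and 269 to 295 CPM, and 3 luteal markers, nearly all SCARB1, at 221 to 253 and 152 to 175 CPM. Of immune cells, 2 T cell markers summed to 20.8 to 28.2 and 5.17 to 14.7 CPM and 2 macrophage markers to 18.5 to 60 and 6.29 to 9.5 CPM. The part of these shifts in the result was not tested.

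No member was called between days 3 and 6 in the ovary or the oviduct, where 0.0% of all genes were called in either direction with 2 libraries in 1 of the groups. At an unadjusted p under 0.05, 7 members and 769 genes differed in the ovary and 7 members and 918 genes in the oviduct. The DESeq2 Wald test called 1 member higher in each, where it called 0.305% of all ovarian genes higher and 0.026% lower and 0.103% and 0.155% of oviductal genes. The medians over the members were 0.84 in the ovary and 0.42 in the oviduct. Every library of day 6 lay above every library of day 3 in 12 members in the ovary and 13 in the oviduct, where 6.66% and 28.7% of all genes with a count did. Among them was A2ML1, a protease inhibitor of the alpha-2-macroglobulin family, at 5.91 and 4.83 CPM on day 3 and 7.81, 16.6 and 33.1 CPM on day 6 in the ovary.

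Between days 12 and 18 the log2 fold change was negative for 22 of 27 endometrial, 27 of 28 ovarian and 24 of 28 oviductal members. In the endometrium 14 of 27 members fell and 1, ISM1, rose, where 7.1% of all genes were called lower and 6.0% higher. The 14 were LIPG, CYP4B1, FST, TARS3, GREB1L, FSTL4, HSD11B2, CTNNA2, FZD5, GPT2, ARMC12, PGRMC1, EPHX1 and ENSSSCG00000002623. The median was -1.47 over the members and 0.026 over all genes. In 14 members every library of day 18 lay below every library of day 12, against 13.6% of all genes with a count. The calls numbered 9 without library 2 of day 12 and 9 without library 1 of day 18, fits whose shares of all genes are not given here. They numbered 1 without library 2 and 0 without library 3 of day 18, where 1.13% and 0.767% of all genes were called higher and 0.67% and 0.471% lower. PECAM1 was at 101, 119 and 218 CPM on day 12 and 296, 392 and 315 CPM on day 18. The ciliated cell markers were likewise higher on day 18 without overlap, at 118 to 261 and 317 to 397 CPM, as were the macrophage markers at 8.72 to 11.3 and 12.4 to 19.5 CPM and the 1 neutrophil marker found at 0 to 0.107 and 1.22 to 3.2 CPM. OVGP1 was at 2.03 to 2.36 and 2.77 to 12.7 CPM. The part of these markers in the result was not tested.

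In the oviduct 13 of 28 members fell and 0 rose between these days, where 5.83% of all genes were called lower and 9.53% higher. The median was -1.23 over the members and 0.001 over all genes. There were 17 members lower in every library of day 18 than in every library of day 12, against 19.2% of all genes with a count. Without library 2 of day 18 there were 0 calls among the members and 0.0% among all genes. Without libraries 1, 2, 3 and 4 of day 12 or library 3 of day 18 there were 8, 3, 3, 5 and 5. The shares of all genes in these fits are not given here. Smooth muscle markers, 3 of 3 found, summed to 1128 to 6214 CPM on day 12 and 6229 to 12284 CPM on day 18, and CYP11A1 was at 23.8, 55.8, 111 and 58.1 and 21.1, 4 and 8.61 CPM. Their part in the result was not tested. The 13 were CYP4B1, TARS3, GREB1L, FZD5, GPT2, ARMC12, A2ML1, RIMKLB, AQP9, EPHX1, ENSSSCG00000006719, ENSSSCG00000010426 and ENSSSCG00000026109.

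In the ovary no member was called between days 12 and 18, where 0.0% of all genes were called. At an unadjusted p under 0.05, 18 of 28 members and 3316 of 15409 genes differed, and the median over the members was -2.34. Between days 12 and 15, 14 members and 2830 genes passed the unadjusted p, and the median over the members was -1.56. Without library 1 of day 12, 15 members were called lower on day 18 and 12 on day 15, where 10.1% and 7.28% of all genes were called lower and 7.51% and 4.72% higher. The DESeq2 Wald test on all libraries called 14 members lower on day 18 and 8 on day 15, beside 5.94% and 2.65% of all genes. The luteal markers summed to 590.5 to 16200.4 CPM on day 12 and 647 to 4877 CPM on day 18. CYP11A1 was at 167, 7151, 9045 and 5159 CPM in libraries 1 to 4 of day 12 and 2624, 415 and 291 CPM on day 18. Other lists varied widely too, in groups that overlapped. On days 12, 15 and 18 epithelial markers summed to 3.02 to 29.3, 26.1 to 1011 and 21.7 to 763 CPM. Smooth muscle markers summed to 190 to 2740, 813 to 12372 and 1255 to 3179 CPM, and 2 granulosa cell markers to 80.8 to 2349, 35.1 to 1037 and 33.6 to 4376 CPM. The 1 neutrophil marker found was at 0 to 4.96, 2 to 290 and 1.31 to 76 CPM. The part of the luteal and other markers in the result was not tested.

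**Figure D3:**
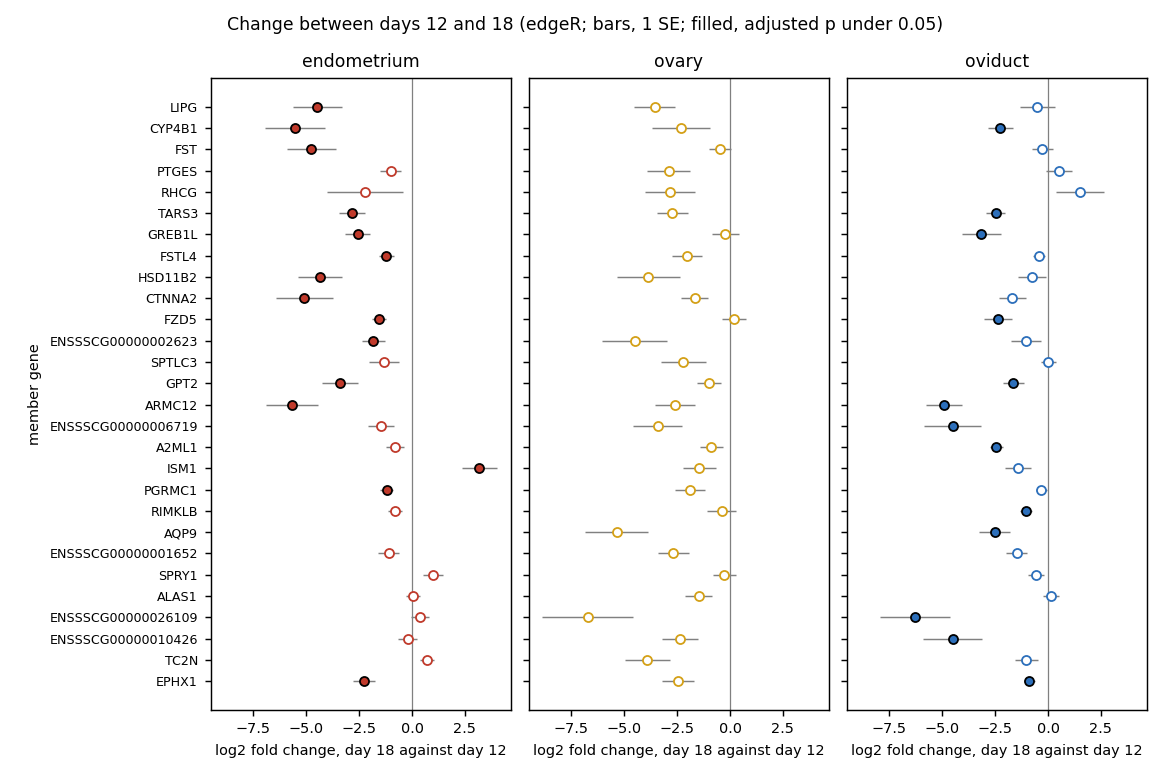
Log2 fold change of each member between days 12 and 18 (points, edgeR) with 1 standard error (bars) in the 3 tissues, filled where the adjusted p was under 0.05. Filled points lie left of 0, 14 in the endometrium and 13 in the oviduct, except ISM1 in the endometrium, and the ovary has none.

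The remaining steps had few calls. From day 6 to day 12 in the endometrium FSTL4 and ENSSSCG00000010426 rose and RHCG, ISM1 and ENSSSCG00000001652 fell, where 4.44% of all genes were called higher and 4.93% lower. There were 3 calls left without library 1 or without library 2 of day 6, fits whose shares of all genes are not given here. Between these days the stromal markers went from 1825 to 2484 to 3193 to 3898 CPM, PECAM1 from 79.1 to 94.9 to 101 to 218 CPM, 2 erythrocyte markers from 9.89 to 35.7 to 70.6 to 174 CPM and the ciliated cell markers from 269 to 295 to 118 to 261 CPM, and their part in the result was not tested. In the ovary and the oviduct 0.0% of all genes and 0 members were called between these days, with 3 and 6 members and 972 and 671 genes at an unadjusted p under 0.05. DESeq2 called 1 ovarian member lower and 1 oviductal member each way, where the shares of all genes called higher and lower were 0.0844% and 0.182% in the ovary and 0.0387% and 0.0967% in the oviduct. From day 12 to day 15 there were 0 calls in the endometrium and the oviduct among the members and 0.0% among all genes, with 5 and 6 members and 3597 and 1760 genes at an unadjusted p under 0.05. DESeq2 called 1 member higher in the endometrium, where it called 5.51% of all genes higher and 2.9% lower, and 1 lower in the oviduct, where it called 0.438% and 0.155%. Without endometrial library 2 of day 15, 13 members were lower and 1, TC2N, was higher on day 15 than on day 12, where 12.8% of all genes were called lower and 10.6% higher. Without oviductal library 2 of day 15, 3 members, GREB1L, ARMC12 and TARS3, were called lower, where 0.549% of all genes were called lower and 1.16% higher. Each of these libraries had the highest mean of log2(CPM + 1) over the members in its group, 4.92 and 4.61. Leaving them out therefore favours lower members on day 15, and these counts are no test of a fall.

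Among the enzymes of lipids, steroids and prostaglandins, LIPG ranged widely in the endometrium. This lipase of the endothelial surface cleaves phospholipids of lipoproteins. Its level there was 2.14, 1.45 and 27.8 CPM on day 3, 833, 1469 and 403 CPM on day 6, 85.8, 182 and 42.1 CPM on day 12 and 7.9, 4.3 and 1.83 CPM on day 18. Neither the day 3 and day 6 libraries nor those of days 12 and 18 overlapped. The log2 fold change was 6.61 (SE 1.25, adjusted p = 0.00387) from day 3 to day 6 and -4.49 (SE 1.16, adjusted p = 0.0268) from day 12 to day 18. Endometrial day 15 libraries were at 11.7, 66, 20.1 and 6.53 CPM, with library 2 the highest. In the ovary LIPG was at 68.6, 868, 1032 and 1428 CPM on day 12 and 164, 60.9 and 36.8 CPM on day 18, with a log2 fold change of -3.56 (SE 0.97, adjusted p = 0.106) that became -3.95 (SE 0.72, adjusted p = 0.00461) without library 1 of day 12. Levels in the oviduct reached 68.3, 14.4 and 34.4 CPM on day 9 and were 0.688, 4.13, 11.3 and 6.45 CPM on day 12.

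PTGES, which makes prostaglandin E from its precursor, was high in the ovary of days 6 and 9. It was at 549 and 517 CPM there on day 3, 1757, 1824 and 1478 CPM on day 6, 201, 1469, 619.9 and 1174 CPM on day 12 and 109.8, 346, 35.9 and 33.1 CPM on day 15. The day 6 libraries lay above all others of the ovary, and the log2 fold change from day 12 to day 15 was -3.11 (SE 0.92, adjusted p = 0.16), and -3.46 (SE 0.87, adjusted p = 0.0248) without library 1 of day 12. The endometrium had 133, 129 and 151 CPM on day 9 and 54.7, 49.1 and 55.4 CPM on day 12. HSD11B2, which turns cortisol into inactive cortisone, was at 2.77, 0.781 and 2.91 CPM in the endometrium on day 3, 13.1, 9.34 and 40.6 CPM on day 6, 8.55, 13.1 and 8.53 CPM on day 12 and 0.64, 0.439 and 0.435 CPM on day 18. It rose by 3.45 (SE 0.91, adjusted p = 0.0219) on the log2 scale from day 3 to day 6 and fell with a log2 fold change of -4.35 (SE 1.03, adjusted p = 0.0209) from day 12 to day 18. In the ovary HSD11B2 was highest on day 3, at 63.5 and 55.3 CPM, against 0.836, 0.798 and 0.549 CPM on day 0.

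CYP4B1, a cytochrome P450 that oxidises fatty acids and foreign compounds, fell from day 12 to day 18 in both the endometrium and the oviduct. In the endometrium it was at 35.5, 46.6 and 26.4 CPM on day 12 and 0.107, 0.614 and 1.65 CPM on day 18, a log2 fold change of -5.52 (SE 1.43, adjusted p = 0.027). In the oviduct it was at 89.8, 131, 134 and 51 and 15.2, 18.9 and 19.6 CPM, a log2 fold change of -2.26 (SE 0.58, adjusted p = 0.0249). Both pairs of groups were free of overlap, and the highest ovarian library, library 1 of day 15, was at 11.9 CPM. EPHX1, the microsomal epoxide hydrolase, fell in the same 2 tissues. Its log2 fold change was -2.28 (SE 0.53, adjusted p = 0.0198) in the endometrium, from 194, 229 and 388 CPM, and -0.88 (SE 0.28, adjusted p = 0.0467) in the oviduct, from 151, 142, 205 and 144 CPM. SPTLC3, a subunit of the enzyme that starts sphingolipid synthesis, was called in none of these steps with all libraries, and without endometrial library 2 of day 15 it was lower on day 15 than on day 12, with a log2 fold change of -1.93 (SE 0.63, adjusted p = 0.0418). That library was the highest of its day in the members, so its removal favours this outcome. The endometrial level of SPTLC3 on day 12 was 8.12, 64.3 and 12.5 CPM, with library 2 far above the others.

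Among secreted proteins and receptors, FST fell late in the cycle in the endometrium. Follistatin, its product, binds and neutralises activin. In the endometrium it was at 29.7, 28 and 29.7 CPM on day 6, 82.8, 63.4 and 68.5 CPM on day 12 and 3.52, 2.46 and 2.26 CPM on day 18, and it fell from day 12 to day 18 with a log2 fold change of -4.75 (SE 1.17, adjusted p = 0.0234). The 3 groups were apart from one another. In the ovary FST was at 373, 142, 165 and 216 CPM on day 12 and 111, 376 and 81.6 CPM on day 18, groups that overlapped, with a log2 fold change of -0.47 (SE 0.53, adjusted p = 0.664). Without library 1 of day 12 the ovarian log2 fold change was -0.31 (SE 0.57, adjusted p = 0.731). The oviduct had 3.93, 4.46, 4.61 and 3.13 CPM on day 12 and 2.61, 3.47 and 2.34 CPM on day 18. FSTL4, a follistatin-like protein, rose from day 6 to day 12 in the endometrium, from 8.76, 7.39 and 13.3 to 70.7, 30.8 and 106 CPM, a log2 fold change of 2.76 (SE 0.38, adjusted p = 0.000626), before it fell. Its day 18 level was 31.9, 37.4 and 24.1 CPM, with -1.22 (SE 0.36, adjusted p = 0.0381).

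ISM1, the secreted protein isthmin, had a second high level in the endometrium late in the cycle. It was at 10.5, 18.5 and 37.6 CPM on day 3, 97.2, 124 and 147 CPM on day 6, 7, 12.7 and 1.36 CPM on day 12 and 10.3, 101 and 87.5 CPM on day 18. It rose from day 3 to day 6 by 2.65 (SE 0.80, adjusted p = 0.0394), fell from day 6 to day 12 with -4.23 (SE 0.87, adjusted p = 0.00927) and rose from day 12 to day 18 by 3.18 (SE 0.83, adjusted p = 0.0281) on the log2 scale. Library 1 of day 18 lay far below the other 2 of its day. Endometrial day 0 libraries were spread over 8.09, 92.8 and 29.9 CPM. In the oviduct ISM1 was at 4.48, 5.07 and 5.88 CPM on day 0 and already at 72.6, 46.1 and 88.6 CPM on day 3.

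PGRMC1, a membrane-associated progesterone receptor component, was measured well above the floor of detection in all 3 tissues. In the endometrium it was at 389.6, 479 and 403 CPM on day 3, 970.3, 1139.7 and 1393 CPM on day 6, 1932, 2214 and 1655 CPM on day 12 and 1142, 644 and 817 CPM on day 18. Days 3 and 6 did not overlap, nor did days 12 and 18, and the log2 fold changes were 1.65 (SE 0.31, adjusted p = 0.00351) and -1.19 (SE 0.30, adjusted p = 0.0263). In the oviduct the difference between days 12 and 18 was -0.32 (SE 0.26, adjusted p = 0.392). FZD5, a receptor for Wnt proteins, rose in the endometrium from 107, 96.3 and 63.9 CPM on day 3 to 241, 303 and 129 CPM on day 6, a log2 fold change of 1.52 (SE 0.33, adjusted p = 0.00831). It fell from 193, 171 and 134 CPM on day 12 to 57, 73.2 and 45 CPM on day 18, with -1.55 (SE 0.34, adjusted p = 0.0163). Oviductal FZD5 fell from 31.4, 30.8, 27.7 and 32.6 to 4.14, 1.22 and 10.5 CPM, with -2.36 (SE 0.66, adjusted p = 0.0322). In the ovary it was at 92.3, 28.3, 33.3 and 49.3 and 53, 123 and 18 CPM, with 0.17 (SE 0.57, adjusted p = 0.896). Without library 1 of day 12 the ovarian log2 fold change was 0.41 (SE 0.61, adjusted p = 0.666).

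A2ML1 fell in the oviduct from 8.95, 16.6, 14.9 and 11.7 CPM on day 12 to 3.06, 1.04 and 2.15 CPM on day 18, a log2 fold change of -2.45 (SE 0.31, adjusted p = 0.013), and no library of day 18 reached those of day 12. SPRY1, a Sprouty protein that dampens growth factor signalling, was called in none of the steps and peaked in the oviduct on day 15, at 34, 29.4, 24 and 17.9 CPM. GREB1L, a relative of the oestrogen-regulated gene GREB1, rose in the endometrium from 22.6, 8.59 and 26.2 CPM on day 3 to 167, 265 and 224 CPM on day 6, a log2 fold change of 3.69 (SE 0.60, adjusted p = 0.00182). It fell from 72, 88.8 and 63.5 CPM on day 12 to 16.9, 8.68 and 13.4 CPM on day 18 there, with -2.56 (SE 0.58, adjusted p = 0.0191). Oviductal GREB1L fell from 55.1, 35.7, 95.5 and 50.8 to 6.49, 5.04 and 5.61 CPM, with -3.15 (SE 0.94, adjusted p = 0.0384). In the ovary GREB1L was at 165, 78.2, 68.8 and 158 CPM on day 12 and 26.3, 259 and 85.8 CPM on day 18, groups that overlapped.

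The 2 transporters were each near the floor of detection in some tissue and day. RHCG, an ammonia transporter of epithelial membranes, was in the endometrium at 0, 0 and 0.831 CPM on day 3 and at 73.7, 68.5 and 11.1 CPM on day 6. By day 12 it was back at 0.0864, 0.64 and 0.272 CPM. The log2 fold changes were 7.68 (SE 1.14, adjusted p = 0.00123) and -7.34 (SE 1.12, adjusted p = 0.00122). In the ovary it reached 85.4, 451 and 169 CPM on day 6, against 6.09 and 3.54 CPM on day 3, with 5.99 (SE 1.64, adjusted p = 0.773). Oviductal RHCG reached 7.3 and 4.71 CPM, and the highest mean over the unused days was on day 6 in each tissue. AQP9, an aquaglyceroporin that passes water and glycerol, was at no more than 2.24 CPM in the endometrial libraries and was not tested there. In the oviduct it fell from 20.5, 33.6, 30.8 and 24 CPM on day 12 to 10.1, 0.869 and 1.87 CPM on day 18, a log2 fold change of -2.52 (SE 0.72, adjusted p = 0.0341). Ovarian levels on day 12 were 0.292, 17.4, 13.2 and 120.0 CPM and on day 18 1.56, 0.84 and 0.977 CPM, with -5.36 (SE 1.48, adjusted p = 0.106) in all libraries and -5.77 (SE 1.09, adjusted p = 0.00553) without library 1 of day 12.

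GPT2, the mitochondrial alanine aminotransferase, was one of 7 members called lower on day 18 than on day 12 in both the endometrium, where 14 were, and the oviduct, where 13 were. The others were CYP4B1, TARS3, GREB1L, FZD5, ARMC12 and EPHX1. Whether these lists shared more members than chance would give was not tested, and the genes called lower in both tissues were not counted. Endometrial GPT2 was at 44.1, 21.2 and 64.8 CPM on day 3, 243, 314 and 149 CPM on day 6, 171, 219 and 187 CPM on day 12 and 17.7, 23.3 and 15.2 CPM on day 18, with a rise of 2.62 (SE 0.82, adjusted p = 0.0467) and a later log2 fold change of -3.42 (SE 0.86, adjusted p = 0.0244). Day 15 libraries were at 31, 257, 19.5 and 20.7 CPM, with library 2 above every library of day 12. In the oviduct GPT2 went from 169.9, 179, 151 and 116 CPM on day 12 to 54, 19.5 and 58 CPM on day 18, with -1.63 (SE 0.50, adjusted p = 0.0428). TARS3, a threonyl-tRNA synthetase, fell with -2.83 (SE 0.63, adjusted p = 0.0173) in the endometrium, from 24.8, 13.3 and 9.17 CPM, and with -2.47 (SE 0.44, adjusted p = 0.0133) in the oviduct, from 13.2, 23.5, 10.1 and 15.3 CPM. In the ovary its log2 fold change was -2.72 (SE 0.75, adjusted p = 0.106), and -3.08 (SE 0.60, adjusted p = 0.00629) without library 1 of day 12.

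ALAS1, which carries out the first step of haem synthesis, was called in no step in any tissue. Its ovarian level was 56.9, 53 and 56.9 CPM on day 0, 61.8, 239, 181 and 414 CPM on day 12 and 76.5, 145, 43.6 and 53.1 CPM on day 15. Without library 1 of day 12 the log2 fold change between the last 2 days was -2.17 (SE 0.49, adjusted p = 0.0163). RIMKLB, a ligase that joins N-acetylaspartate to glutamate, fell in the oviduct from 26.7, 48.3, 36.3 and 37 CPM on day 12 to 20.3, 8.17 and 19.2 CPM on day 18, with -1.04 (SE 0.28, adjusted p = 0.0288). ARMC12, an armadillo repeat protein, was in the endometrium at 0.268, 0.335 and 0.416 CPM on day 3, 4.86, 9.06 and 7.67 CPM on day 6, 30.6, 27.3 and 19.2 CPM on day 12 and 0.747, 0.439 and 0.348 CPM on day 18. Its log2 fold changes were 4.55 (SE 1.27, adjusted p = 0.0272) and -5.68 (SE 1.23, adjusted p = 0.0167), and in the oviduct it was -4.91 (SE 0.86, adjusted p = 0.0133) from day 12 to day 18. These rest partly on few counts. There were 3, 3 and 4 on endometrial day 3 and 3, 3 and 9 on oviductal day 18. CTNNA2, an alpha-catenin that links cadherins to actin, was at 0.268, 0.892 and 0.208 CPM in the endometrium on day 3 and 33.9, 11.3 and 5.26 CPM on day 6, a log2 fold change of 5.40 (SE 1.34, adjusted p = 0.0159). It fell from 6.91, 26.9 and 7.08 CPM on day 12 to 0.427, 0.614 and 0.174 CPM on day 18, with -5.08 (SE 1.34, adjusted p = 0.0284). Its counts were 3, 8 and 2 on day 3 and 4, 7 and 2 on day 18. TC2N, a protein with tandem C2 domains, peaked in the endometrium on day 15, at 767, 427, 908 and 642 CPM, and in the ovary on day 12, at 20.5, 244, 475 and 255 CPM.

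The 5 members without a symbol ranged widely in level. ENSSSCG00000026109 was at 35, 1709.5 and 477 CPM in the ovary on day 0, 12298 and 20206 CPM on day 3, 192, 25896, 25667 and 28585 CPM on day 12 and 125, 547 and 109 CPM on day 18. In the oviduct it was at 17.3, 101, 249.7 and 129 CPM on day 12 and 1.98, 0.782 and 1.4 CPM on day 18, a log2 fold change of -6.27 (SE 1.65, adjusted p = 0.0264). In the endometrium it was at 0.803 to 9.97 CPM, and its day 9 mean there rested on library 3, at 2.04, 1.58 and 9.97 CPM in the 3 libraries. ENSSSCG00000006719 was likewise far higher in the ovary, with 9919.9, 10089 and 10869 CPM in the ovary and 3.77, 2.57 and 9.46 CPM in the endometrium on day 9, and fell in the oviduct with -4.51 (SE 1.33, adjusted p = 0.0378) from day 12 to day 18.

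ENSSSCG00000002623 differed widely between ovaries of day 0, at 40.1, 223 and 3337 CPM, and fell in the endometrium from 42, 78 and 94.4 CPM on day 12 to 24.5, 8.6 and 29.6 CPM on day 18, with -1.84 (SE 0.54, adjusted p = 0.0407). ENSSSCG00000001652 fell in the endometrium from 80.2, 70.5 and 47.4 CPM on day 6 to 7.52, 28.1 and 19.2 CPM on day 12, with -1.91 (SE 0.50, adjusted p = 0.0305). ENSSSCG00000010426 rose between these days there, from 4.01, 6.47 and 8.03 to 38.4, 25.2 and 21.7 CPM, with 2.12 (SE 0.46, adjusted p = 0.0124). In the oviduct it was at 0.59, 1.12, 1.82 and 0.782 CPM on day 12 and, at or under the floor of 3 counts, at 0.0901, 0 and 0 CPM on day 18, with a fitted value of -4.51 (SE 1.38, adjusted p = 0.0426) that depends on the prior count of the fit.

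The tissues were compared on day 12 in a joint fit of all 3, and these values include ovarian library 1 of day 12. Against the endometrium the ovary was higher in 13 of 28 members and lower in 1, FZD5, where 21.4% of all genes were called higher and 22.8% lower. Against the oviduct the ovary was higher in 13 and lower in 3, CYP4B1, SPRY1 and ENSSSCG00000001652, where the shares of all genes were 26.4% and 26.0%. Between the oviduct and the endometrium 6 members were higher in the oviduct and 8 lower, where 16.7% and 16.6% of all genes were. PTGES was 4.51 (SE 0.88, adjusted p = 7.95e-05) higher on the log2 scale in the ovary than in the endometrium and 7.48 (SE 0.90, adjusted p = 1.52e-08) higher than in the oviduct. PGRMC1 was not called between the ovary and the endometrium, with a log2 difference of -0.11 (SE 0.45, adjusted p = 0.867), and its level in the oviduct was lower than in both, by -2.23 (SE 0.46, adjusted p = 0.000263) against the endometrium.

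In the interactions that follow, ovarian library 1 of day 12 is included unless stated. Whether the change between days 12 and 18 differed between tissues was tested as an interaction. It differed between the ovary and the endometrium for 4 members, where 4.41% of all genes were called higher and 3.5% lower. The change was higher in the ovary for FST, by 4.32 (SE 1.09, adjusted p = 0.0144), and lower for TC2N, by -4.56 (SE 1.05, adjusted p = 0.00764), for ISM1, by -4.59 (SE 1.16, adjusted p = 0.0143), and for ENSSSCG00000026109, by -7.04 (SE 2.13, adjusted p = 0.0367). TC2N was at 425, 302 and 184 CPM in the endometrium on day 12 and 503, 572 and 441 CPM on day 18, and at 20.5, 244, 475 and 255 and 31.9, 6.53 and 23.1 CPM in the ovary. Between the oviduct and the endometrium the change differed for FST, by 4.45 (SE 1.16, adjusted p = 0.0193), and for ISM1, by -4.62 (SE 1.16, adjusted p = 0.0153), where 3.45% of all genes were called higher and 2.19% lower. The share of the members called was close to that of all genes. Without library 4 of the ovary on day 12 there were 2 calls between the ovary and the endometrium, and without endometrial library 3 of day 12, endometrial library 2 or 3 of day 18 or oviductal library 2 of day 18 there was 1 between the oviduct and the endometrium. The shares of all genes in these fits are not given here, so the counts show only dependence on single libraries.

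Between the ovary and the oviduct the change differed for 4 members, where 7.17% of all genes were called higher and 9.03% lower. The share of the members called was no larger than that of all genes. It was higher in the ovary for GREB1L, by 3.00 (SE 1.06, adjusted p = 0.0471), and for FZD5, by 2.60 (SE 0.79, adjusted p = 0.0226), and lower for PTGES, by -3.32 (SE 1.08, adjusted p = 0.0311), and TC2N, by -2.81 (SE 0.97, adjusted p = 0.0434). With the replicate number as a block 2 were called, FZD5 and PTGES, where 7.53% of all genes were called higher and 8.67% lower. Oviductal PTGES was at 4.13, 7.59, 8.58 and 7.72 CPM on day 12 and 6.04, 13.4 and 5.05 CPM on day 18. Without ovarian library 1 of day 12, 11 members were called, 9 of them lower in the ovary, where 13.3% of all genes were called higher and 12.1% lower. Other single libraries lowered the count to 0 (library 2 of the ovary on day 12), to 1 (library 3 of the ovary on day 18, library 1 of the oviduct on day 12 or library 2 of the oviduct on day 18) or to 2 (library 3 of the ovary or library 3 or 4 of the oviduct on day 12). For these last fits the shares of all genes are not given here, so it is not shown whether only the members lost calls.

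**Figure D4:**
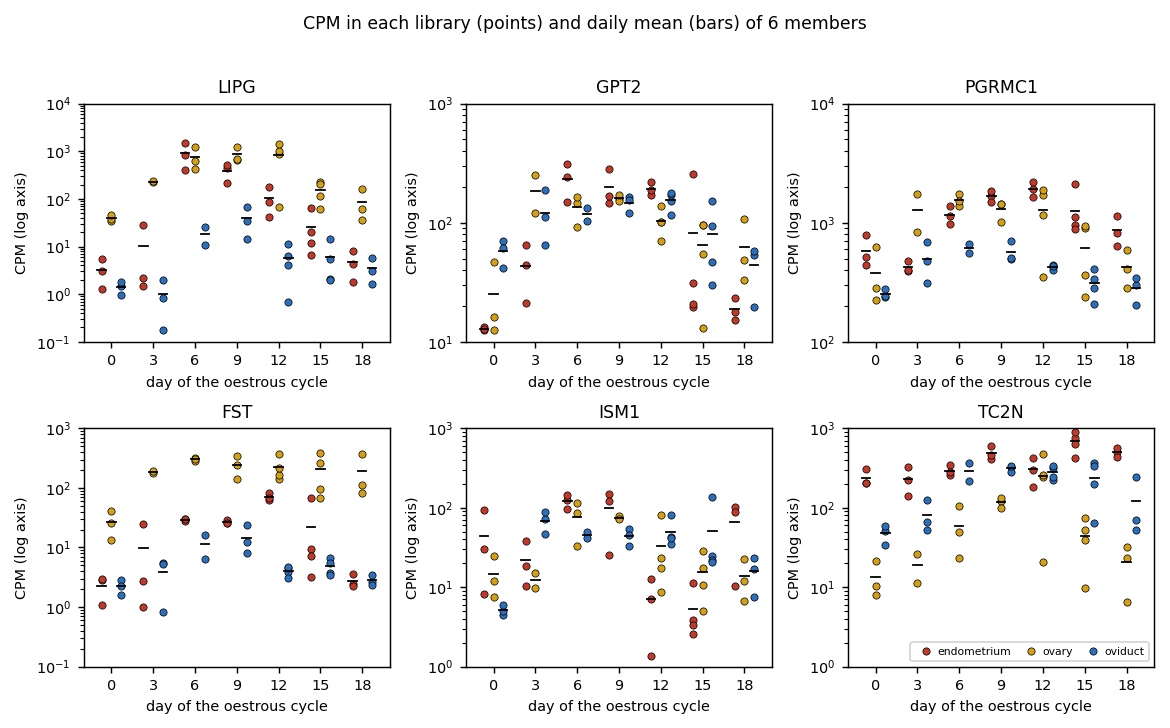
CPM on a log axis in each library (points) of 6 members over the 7 days, with the mean of each day (bars), coloured by tissue. Endometrial FST and GPT2 lie near the bottom of their ranges on day 18, endometrial ISM1 is high on day 6 and in 2 of 3 libraries on days 9 and 18 and low on days 12 and 15, and endometrial TC2N stays at 142 to 908 CPM throughout.

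Some members were held in the oviduct at a small fraction of their ovarian level. On day 9, which the rule used, the mean CPM in the oviduct was under 10% of that in the ovary for 9 members, from 2.19% for ENSSSCG00000010426 over 3.70% for ENSSSCG00000026109, 4.10% for ENSSSCG00000006719, 4.15% for ENSSSCG00000002623, 4.54% for LIPG, 5.17% for CTNNA2, 5.52% for PTGES and 6.01% for FST to 8.82% for RHCG. Of the luteal markers, which are no members, CYP11A1 was at 4.38% and SCARB1 at 4.54%. In the oviduct CYP11A1 itself was at 26.4, 18 and 22.4 CPM on day 0 and 232, 132 and 177 CPM on day 9. SCARB1 was already at 100, 122 and 112 CPM there on day 0 and at 309, 169 and 254 CPM on day 9. LHCGR, the remaining luteal marker found, was at 1.3, 1.22 and 1.04 CPM and 0.54, 0.865 and 2.21 CPM. The other 19 members ran from 25.5% for GREB1L to 2107% for CYP4B1, which was higher in the oviduct than in the ovary, as were SPRY1, SPTLC3, TC2N and ENSSSCG00000001652. On day 12, without ovarian library 1, the 9 were spread from 0.465% for ENSSSCG00000026109 to 4.68% for CTNNA2, with FST at 2.32%, CYP11A1 at 0.874% and SCARB1 at 1.22%. Whether ovarian RNA was present in the oviduct libraries was not tested.

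**Figure D5:**
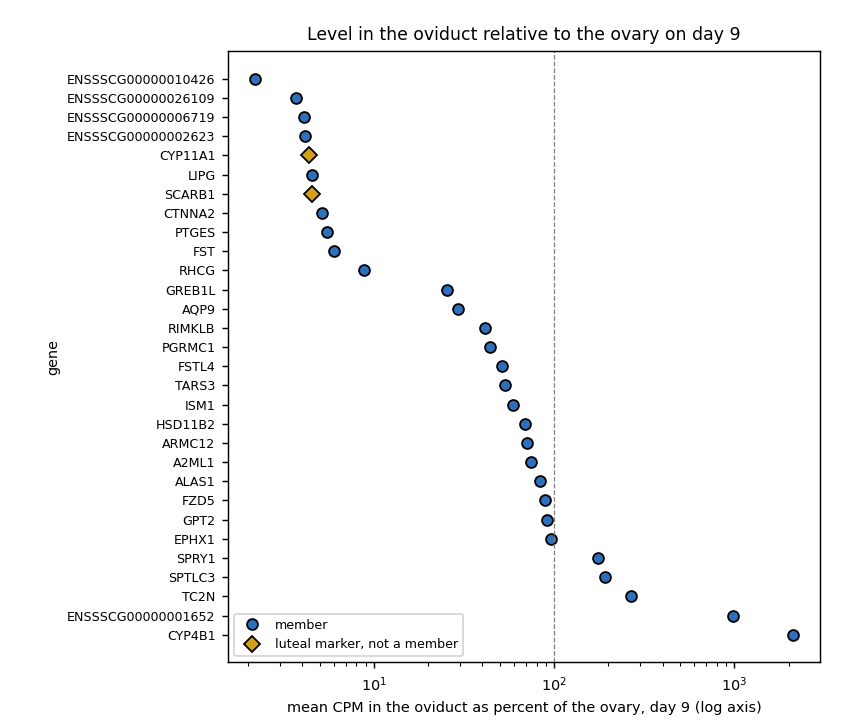
Mean CPM in the oviduct on day 9 as a percentage of that in the ovary, on a log axis, for the 28 members (circles) and the luteal markers CYP11A1 and SCARB1 (diamonds). A group of 9 circles lies between 2.19% and 8.82%, around the markers at 4.38% and 4.54%, and the next lies at 25.5%.

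In the order of genes of the RefSeq annotation of Sscrofa11.1, in which 21 members were found once, 2 pairs of members were direct neighbours, SPTLC3 with ISM1 and A2ML1 with RIMKLB, and the gene intervals within each pair did not overlap. The daily means of A2ML1 and RIMKLB were both highest on day 6 in the ovary and on day 12 in the oviduct. Among all members, 8 were highest on day 6 in the ovary and 10 on day 12 in the oviduct. In the endometrium A2ML1 was highest on day 9 and RIMKLB on day 12. SPTLC3 and ISM1 had their highest endometrial means on different days. In the endometrium of day 6 ISM1 was at 97.2, 124 and 147 CPM, its highest daily mean, while SPTLC3 was at 6.23, 9.24 and 6.78 CPM, below its 16.3, 16.3 and 13.9 CPM of day 3.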

How the data were processed

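Poly-A RNA of 3 gilt tissues on 7 days was sequenced as paired-end reads. Per the paper, 13 bases were cut by the authors from the start of each read before mapping with tophat2 to Ensembl pig transcripts. They deposited 1 table of raw counts per gene and library, not normalized and not pooled, and their processing notes name featureCounts without saying whether strand was used. Column names give the tissue, the day and a replicate number but no animal. The labels list 67 samples, and 1 endometrial sample of day 12 was not analysed here.

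CPM were computed from the counts. The table's Ensembl identifiers were paired with 11804 symbols. The members, marker lists and tests were chosen with earlier results of these data known. Each tissue was fitted with edgeR 4.0.16 (R 4.3.3; TMM, filterByExpr, robust glmQLFit, glmQLFTest) over days 3, 6, 12, 15 and 18, with Benjamini-Hochberg adjustment over 15257, 15409 and 15518 genes in the endometrium, the ovary and the oviduct, and all tissues jointly for comparisons between them (16803 genes). Standard errors were taken from the fold change and its test statistic. On simulated counts for day 18 against day 12, with 200 genes changed by a log2 value of 2, the fits recovered 139, 85 and 143 in the endometrium, the ovary and the oviduct, with 5 false calls in each. All simulated libraries of a tissue shared the same mean profile apart from the changed genes, and genes were drawn independently. No simulated library stood apart, so these rates do not describe fits that hold such a library, as in the ovary of day 12.

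Genes were named when among the 20 members with the largest smallest ratio or the 5 with the highest mean CPM outside days 0 and 9, and the other members so that each was accounted for. The floor of 3 counts covers counting error only, since reads carry no molecular identifiers. Alternatives were DESeq2 1.42.0 (Wald test), edgeR with DESeq2's size factors, no low-count filter, all 7 days in the fit, fewer groups in the fit, a replicate block, other constants and scalings in the ratio, and leaving out each library.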

Additional observations from a re-analysis of the deposited data

Results flagged for a closer look

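In groups of 4 libraries, the highest or lowest library was checked for a gap to its nearest neighbour beyond Dixon's limit, for each member and for the mean over the members. The limit assumes normal values, while single members were checked on CPM, and the checks share libraries, so no rate expected by chance is given. Of 145 checks, 28 were beyond the limit. In the endometrium of day 15, 8 of these concerned library 2, the highest of its group, with FST at 68.7 CPM, RHCG at 0.557, TARS3 at 18.6, HSD11B2 at 9.75, CTNNA2 at 11.3, GPT2 at 257, ARMC12 at 20.5 and EPHX1 at 267 CPM. In 1 gene each, other endometrial libraries of that day stood out, library 4 with ISM1 at 11.3 CPM and library 3 with ENSSSCG00000026109 at 3.30 CPM.

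In the ovary of day 12, library 1 was the lowest by such a gap in CYP4B1 at 0.585 CPM, ENSSSCG00000006719 at 337 CPM and ENSSSCG00000026109 at 192 CPM, and library 4 the highest in RIMKLB at 59.1 CPM and AQP9 at 120.0 CPM. On day 15 ovarian library 2 was the highest in TARS3 at 23.0, HSD11B2 at 13.8, ENSSSCG00000002623 at 485, AQP9 at 9.05 and ENSSSCG00000026109 at 9506 CPM, library 1 in CYP4B1 at 11.9 CPM and library 4 in RIMKLB at 56.3 CPM. In the oviduct the libraries concerned were, on day 12, library 2 with RHCG at 0 CPM, library 1 with ISM1 at 81.6 CPM and library 3 with EPHX1 at 205 CPM, and on day 15 library 2 with GREB1L at 55.5 CPM and library 3 with ISM1 at 137 CPM and ENSSSCG00000010426 at 1.38 CPM. The RHCG flag rests on 0 counts against 1 in each other library of its group.

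The change from day 12 to day 18 differed between tissues, by the interaction in edgeR with an adjusted p under 0.05, in 10 cases. Between the ovary and the endometrium the differences on the log2 scale were -4.56 for TC2N, -4.59 for ISM1, 4.32 for FST and -7.04 for ENSSSCG00000026109, where 4.41% of all genes were called higher and 3.5% lower. Between the oviduct and the endometrium they were -4.62 for ISM1 and 4.45 for FST, beside 3.45% and 2.19% of all genes. Between the ovary and the oviduct they were -2.81 for TC2N, 3.00 for GREB1L, -3.32 for PTGES and 2.60 for FZD5, beside 7.17% and 9.03%. In this contrast the members were called no more often than all genes, and between the oviduct and the endometrium about as often.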

How the results depend on the processing

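No call of a member at an adjusted p under 0.05 changed its sign in the alternative fits run. The number of members was 60 with 0.1 added to the mean CPM, which kept all 28, and 14 with 5 added, and 26 to 34 when a library was left out. It was 19 after an ovarian profile scaled to CYP11A1 was subtracted from the oviduct, an alternative chosen after the data were seen that uses the days that chose the members. After the subtraction the oviductal ratio was under 2 for 9 members. It went from 5.37 to 0.123 for ENSSSCG00000002623 and from 69.1 to 0.575 for ENSSSCG00000026109, a change of direction in both. The mean of log2(CPM + 0.1) over the members was 2.61, 3.18, 4.85, 5.25, 4.63 and 2.92 in the endometrium on days 0, 3, 6, 9, 12 and 18, and 2.79 and 2.62 in the oviduct on days 0 and 18. Shares of all genes are given above for only some of the fits that follow. The counts of members called changed by more than 1.5 times as follows. In the endometrium they were 9 (DESeq2 Wald test), 8 (all 7 days in the fit) and 10 (only the 2 groups) for day 12 against day 6, and 1 (DESeq2 and all 7 days) for day 15 against day 12. In the ovary they were 1 (DESeq2) and 2 (only the 2 groups) for day 6 against day 3, 1, 8 and 14 (DESeq2) for the later steps to days 12, 15 and 18, and 4 (all 7 days) for day 18. In the oviduct DESeq2 called 1, 2 and 1 for the steps to days 6, 12 and 15. For the interactions they were 2 (only the groups compared) between the ovary and the endometrium, 5 (DESeq2) and 9 (only the groups compared) between the oviduct and the endometrium, and 2 (no filter), 2 (replicate block) and 1 (only the groups compared) between the ovary and the oviduct.

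Leaving out 1 library gave 5 to 8 calls for endometrial day 6 against day 3, 3 to 5 for day 12 against day 6, 0 to 14 for day 15 and 0 to 11 for day 18 against day 12. It gave 0 to 12 and 0 to 15 in the ovary and 0 to 3 and 0 to 11 in the oviduct for days 15 and 18 against day 12. For the interactions it gave 2 to 5 (ovary and endometrium), 1 to 2 (oviduct and endometrium) and 0 to 11 (ovary and oviduct). For the tissues on day 12 it gave 10 to 14, 12 to 14 and 15 to 18. Where the share of all genes in such a fit is not given above, these counts show only dependence on single libraries. A single library left in a group of 2 was assumed to vary like the other groups. The cause of these changes was not tested. Of the calls of single genes, 33 were lost and 493 kept under other settings, and 205 were lost and 524 kept without a library.

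Same-numbered libraries of different tissues on a day had a mean correlation of deviations of 0.121, over 0.1 in 43 of 63 pairs, against -0.0503 for other numbers, and 93 of 118 correlated best with their own number. The labels do not say that a number marks a gilt. The comparisons between tissues on day 12 and the interactions set such libraries side by side, and there the block moved the count by over 1.5 times only between the ovary and the oviduct, as given above. With the replicate block the counts of calls were 9, 5 and 14 for endometrial days 6, 12 and 18 and 9 for oviductal day 18. Groups held 2 to 4 libraries, and a floor of 3 counts, 0.223 to 0.335 CPM, limits RHCG and AQP9 in the endometrium. ARMC12 and CTNNA2 were also near this floor there on days 3 and 18, as was ARMC12 in the oviduct on day 18.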
